A study of Mus musculus with 4 samples.

Results

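The 9 genes described here take part in the recruitment of mural cells to brain capillaries and in the angiotensin and endothelin responses of those cells. They are *Pdgfb*, *Pdgfrb*, *Agtr1a*, *Anpep*, *Des*, *Rgs5*, *Notch3*, *Cspg4* and *Ednra*, chosen by name from the 32286 features counted, and each was found once. Vessel fragments were isolated from the cerebrum of 4 mice aged 3 months, and the RNA of single cells was counted by 10x 3′ sequencing in 1 library per mouse. WT1 and WT2 were *Angpt2*-WT, and KO1 and KO2 were *Angpt2*-KO. The *Angpt2*-KO mice carried a constitutive allele made with a *Pgk*-Cre line that lacks exon 4 in every cell type, and the *Angpt2*-WT mice were their Angpt2+/+ littermates, all on a C57BL6/J background. Mouse 1 of each genotype was female and mouse 2 was male. Fragments were pulled out with beads carrying an antibody to PECAM1, an endothelial surface protein, so mural cells were collected through their attachment to endothelium.

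Endothelial cells (ECs) secrete platelet-derived growth factor B, the product of *Pdgfb*, which is held at the vessel surface and draws in mural cells through its receptor, *Pdgfrb*. Mural cells comprise pericytes, which lie along capillaries and contain little contractile protein, and smooth muscle cells, which ring arteries and arterioles. Both respond to vasoactive peptides: angiotensin II acts on *Agtr1a* and endothelin-1 on *Ednra*, and aminopeptidase N (*Anpep*) trims the smaller angiotensin peptides at the pericyte surface. *Rgs5* shortens the signal of such receptors, *Notch3* receives Notch ligands from the endothelium, and *Cspg4* (NG2) and *Des* (desmin) are a surface proteoglycan and an intermediate filament protein.

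Cells with more than 500 genes and under 10% mitochondrial unique molecular identifiers (UMIs, each marking 1 captured mRNA) were kept, which left 17999 cells with 31753395 to 42903731 UMIs per library. Pericytes were cells with UMIs of 3 or more of *Kcnj8*, *Abcc9*, *Higd1b*, *Atp13a5* and *Vtn*, and smooth muscle cells had 20 or more UMIs of *Acta2*, *Tagln* and *Myh11* together. Endothelium had 4 or more of 7 endothelial markers (*Cldn5*, *Flt1*, *Pecam1*, *Tie1*, *Cdh5*, *Tek* and *Kdr*) and passed neither mural rule. No member took part in these rules. In the order WT1, WT2, KO1 and KO2, which is kept below, there were 98, 187, 175 and 309 pericytes, 195, 181, 58 and 225 smooth muscle cells and 3340, 4919, 2237 and 4246 ECs. Cells that passed both mural rules (32, 29, 23 and 75) were counted as smooth muscle. Pericytes made up 2.84% ± 0.589 of kept cells in *Angpt2*-WT and 5.92% ± 0.155 in *Angpt2*-KO mice (SD, n = 2 mice each, exact permutation p = 0.33, two-sided, the smallest that 2 mice against 2 allow). No doublet caller was run, and 1 to 16 barcodes were shared by each pair of libraries.

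Many mural cells also held endothelial transcripts. Of the pericytes, 52.0% (WT1), 48.7% (WT2), 58.9% (KO1) and 72.2% (KO2) had UMIs of 4 or more of the 7 endothelial markers, against 25.1%, 31.5%, 31.0% and 40% of the smooth muscle cells. In pericytes of this kind the median endothelial marker stood at 78.2% to 89.3% of its level in endothelium, whereas in pericytes with under 4 of the markers it stood at 1.57% to 3.17%. The pericytes with under 4 markers numbered 47, 96, 72 and 86 and were shallower, with medians of 1924.5 to 4182.5 UMIs per cell against 12124 to 28036. They held 178407, 283663, 405476 and 203949 of the 1355432, 2190297, 4009593 and 3667793 UMIs summed for pericytes. Most UMIs tested in the pericyte class thus came from cells with 4 or more endothelial markers. Between the genotypes 0 of the 7 endothelial markers were called in pericytes. Of the markers of EC subtypes defined below, 2 of 3 angiogenic ones were called higher in *Angpt2*-KO pericytes (median log2 fold change 2.92) and 1 of 5 venous ones lower (-1.45), the latter summing to 1229, 1288, 349 and 924 CPM. In addition, 2 of 3 oligodendrocyte markers were called lower and 5 erythroid markers summed to 56.8, 5317, 10879 and 3286 CPM, and their part in the results was not tested. Levels are given for all cells of a class first and then for those with under 4 endothelial markers. A level is in CPM (counts per 1000000 UMIs), the gene's UMIs relative to all UMIs of that class in 1 mouse.

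**Figure D1:**
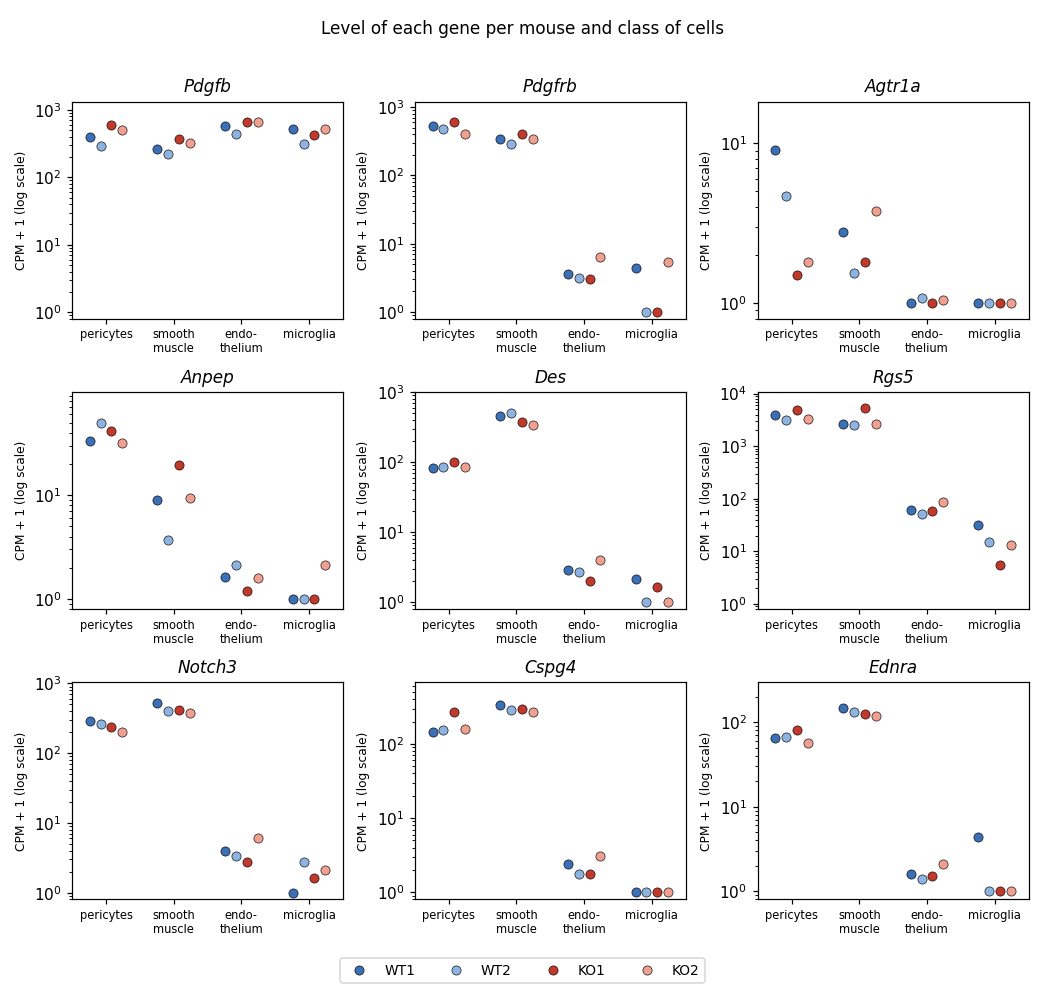
Level of each of the 9 genes (vertical axis, CPM + 1 on a log scale) in pericytes, smooth muscle, endothelium and microglia, with 1 point per mouse (blue, Angpt2-WT; red, Angpt2-KO). *Pdgfb* was high in all 4 classes, including microglia at 306 to 528 CPM, while *Pdgfrb* stood at 403 CPM or more in pericytes and at 5.36 CPM or less in endothelium.

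None of the 9 genes was called between the genotypes in any class. A gene is called where its adjusted p was under 0.05 by edgeR's quasi-likelihood test on summed UMIs, with Benjamini-Hochberg adjustment over all genes tested. In pericytes 0 of 9 were called, where 0.257% of 11266 genes were (0.213% higher and 0.0444% lower in *Angpt2*-KO mice). Most UMIs of this class came from cells with 4 or more endothelial markers. In smooth muscle 0 of 8 were called, against 0.526% of 10645 genes (0.479% higher and 0.047% lower). In endothelium 0 of 8 were called, against 3% of 13772 genes (2.01% higher and 0.988% lower). The unadjusted p was under 0.05 for 2 of the 9 in pericytes (*Pdgfb* and *Agtr1a*), for 1 of 8 in smooth muscle (*Des*) and for 0 of 8 in endothelium, and DESeq2 called 0 in each class. Over all genes tested, the unadjusted p was under 0.05 for 1318 of 11266, 1434 of 10645 and 2274 of 13772. The median log2 fold change of the members was 0.02 in pericytes, -0.09 in smooth muscle and 0.37 in endothelium, and that of all genes tested was 0.00097, 0.0062 and -0.0024. In endothelium *Pdgfrb* was at 2.59, 2.18, 2.05 and 5.36 CPM, and *Notch3* at 2.98, 2.37, 1.73 and 5.02 CPM. Both were lowest in KO1 and highest in KO2, as was *Des*. *Cspg4*, *Ednra* and *Rgs5* were highest in KO2 as well, and *Anpep* was lower in both *Angpt2*-KO mice. The 5 pericyte markers summed to 9.41, 14.5, 11.5 and 28.3 CPM there, and their part in the median was not tested. On simulated pericyte counts this test called 28% of the genes changed 2-fold and 88% of those changed 4-fold.

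**Figure D2:**
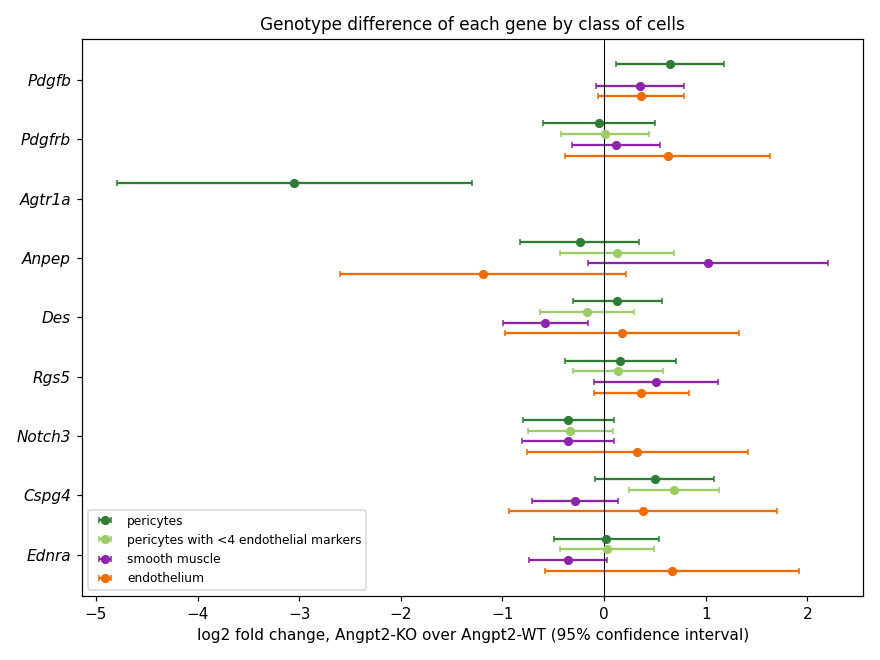
Log2 fold change of each gene in Angpt2-KO over Angpt2-WT mice (horizontal axis) in pericytes, in pericytes with under 4 endothelial markers, in smooth muscle and in endothelium, with 95% confidence intervals from edgeR, where the gene was tested. *Agtr1a* in pericytes lay farthest from 0, at -3.05, and no value passed the adjusted threshold.

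*Pdgfb*, the ligand (chromosome 15, 79995874 to 80014977, minus strand, GRCm38), was at 585, 438, 660.3 and 665 CPM in endothelium. The *Angpt2*-KO mice had higher levels than the *Angpt2*-WT mice without overlap, but the fold change of 0.36 on the log2 scale (SE 0.18, adjusted p = 0.37) was not called. Without WT2, the mouse with the lowest level, it was 0.13, and without WT1 it was 0.59. In endothelium without the angiogenic cells described below it was 0.23 (adjusted p = 0.62). With so few mice per genotype, the smallest exact permutation p possible is 0.33, so the genotypes can easily separate by chance. A gap without overlap, here or for any gene below, therefore only describes these mice. The share of all tested genes with such a gap is not given.

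In the pericyte class *Pdgfb* was at 391, 292, 599 and 498 CPM, again without overlap between the genotypes (log2 fold change 0.65, SE 0.23, adjusted p = 0.34). The 3 angiogenic EC genes defined below also summed to 90.7, 84.5, 1088 and 397 CPM in this class, and their part in the difference was not tested. Nearly all *Pdgfb* UMIs were in cells with endothelial transcripts. Pericytes with under 4 endothelial markers had *Pdgfb* at 39.2, 7.05, 12.3 and 49.0 CPM, from 7, 2, 5 and 10 UMIs, so that the gene was not tested there. Those with 4 or more had it at 444, 334, 665 and 525 CPM. Relative to endothelium, *Pdgfb* stood at 1.61% to 7.38% in the former and at 75.9% to 101% in the latter. In the latter it was below each of the 7 endothelial markers in WT1 and WT2, above each in KO1 and within their range in KO2. In smooth muscle it was at 265, 225, 371 and 320.3 CPM (log2 fold change 0.35, SE 0.20, adjusted p = 0.47), and at 38.1 to 65.6 CPM in smooth muscle with under 4 endothelial markers.

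Microglia, the brain's resident macrophages, had *Pdgfb* at 512, 306, 427 and 528 CPM, which was 87.4%, 69.9%, 64.7% and 79.4% of the endothelial level in the same mouse. The median endothelial marker in microglia was at 17.3%, 11.5%, 7.12% and 16.4% of its endothelial level, and the highest of the 7 markers reached 19.1%. Relative to endothelium, *Pdgfb* thus stood above each of the 7 markers in the microglia of all 4 mice. UMIs of *Pdgfb* were found in 83.1% to 92.4% of ECs per mouse and in 65.9% to 78.4% of microglia, at median depths of 4102.5 to 7652 and 3555.5 to 6287 UMIs per cell. After thinning each cell to 2000 UMIs the shares were 58.1% to 70.3% and 49.1% to 52.5%.

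Along the vessel tree *Pdgfb* was higher in arterial than in venous ECs of every mouse. Arterial ECs (3 or more of *Bmx*, *Gkn3*, *Sema3g*, *Efnb2*, *Stmn2* and *Vegfc*) had it at 709, 567, 669.6 and 747 CPM. Venous ECs (2 or more of *Nr2f2*, *Slc38a5*, *Vcam1*, *Lcn2* and *Ackr1*) had it at 520.4, 359, 587 and 567 CPM. The difference was 0.41 on the log2 scale (SE 0.069, adjusted p = 0.0012, with the mouse as a term), and it lay between 0.34 and 0.50 when each mouse was left out. *Pdgfb* was the only 1 of 6 tested members that was called, against 28.3% of 11838 genes. *Rgs5* (118, 109, 50.0 and 48.5 CPM in arterial and 24.6, 28.9, 60.1 and 76.0 CPM in venous ECs) was higher in the arterial ECs of both *Angpt2*-WT mice and lower in those of both *Angpt2*-KO mice. Its pooled difference of 0.95 was not called (SE 0.41, adjusted p = 0.12), and was called without KO1 (1.32, adjusted p = 0.031) and without KO2 (1.4, adjusted p = 0.030). Whether this difference depended on genotype was not tested.

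Angiogenic ECs, defined by 3 or more UMIs of *Angpt2*, *Apln* and *Esm1*, numbered 94, 196, 458 and 353. Their median depth was 11156.5, 9264, 13483.5 and 7760 UMIs per cell, against 5488, 4682, 6926 and 3929 in the other ECs. The part of depth in the differences between angiogenic ECs and the rest was not tested. In the *Angpt2*-KO mice angiogenic ECs had *Pdgfb* at 813 (KO1) and 868 CPM (KO2), against 581 and 630.3 CPM in the other ECs of the same mice. The log2 difference was 0.48 (SE 0.089, adjusted p = 0.00032), or 0.49 in KO1 and 0.46 in KO2 as plain ratios of CPM. It was 0.57 with 6 or more UMIs of the 3 genes. In the *Angpt2*-WT mice the cells that met the same rule had *Pdgfb* at 669 and 563 CPM, against 582 and 431 CPM in their other ECs. Those *Angpt2*-WT cells differed in other genes: *Cldn5*, a tight junction gene, was at 1349 and 1294 CPM in them and at 3311 and 2883 CPM in the *Angpt2*-KO cells, and *Plvap*, a gene of fenestrated endothelium, was at 2493 and 2580 CPM against 556 and 745 CPM.

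All 6 members tested were called higher in the angiogenic ECs of the *Angpt2*-KO mice, where 29.9% of 12658 genes were called and 16.3% were called higher. Besides *Pdgfb* they were *Notch3* (1.42 on the log2 scale), *Pdgfrb* (1.22), *Cspg4* (1.22), *Des* (1.14) and *Rgs5* (0.50), all mural genes at low levels in ECs. *Pdgfrb*, for example, was at 3.06 (KO1) and 11.2 CPM (KO2) in angiogenic and at 1.53 and 4.36 CPM in other ECs. *Rgs5* was at 56.3 and 152 CPM against 57.9 and 75.5 CPM, so that it was higher in KO2 and not in KO1. The 5 pericyte markers summed to 50.7 CPM in the angiogenic ECs of KO2 and to 12.9 CPM in those of KO1. With 6 or more UMIs of the angiogenic genes the direction of each of these 5 turned (*Rgs5* -1.25, *Notch3* -0.89, *Cspg4* -0.77, *Des* -0.64 and *Pdgfrb* -0.55), and DESeq2 called *Pdgfb* alone of the 6. *Pdgfb* was called higher in each of these fits.

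**Figure D3:**
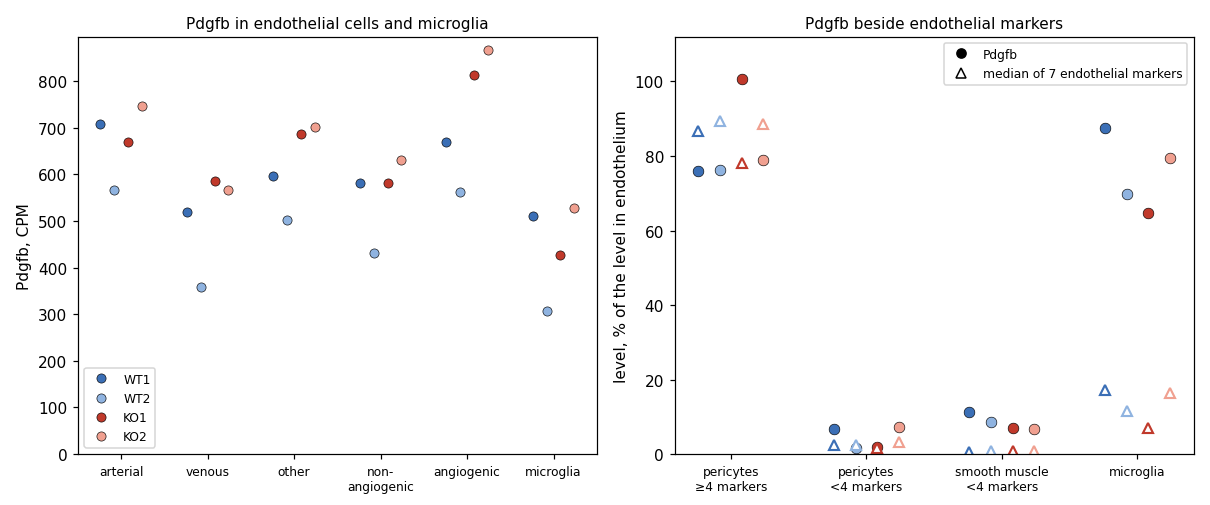
Left, level of *Pdgfb* (CPM) per mouse in arterial, venous, other, non-angiogenic and angiogenic ECs and in microglia. Right, *Pdgfb* (filled circles) and the median of 7 endothelial markers (open triangles) as a percentage of their level in endothelium of the same mouse. In pericytes with under 4 endothelial markers both are at 7.38% or less, whereas in microglia *Pdgfb* is at 64.7% to 87.4% and the markers are at 7.12% to 17.3%. In smooth muscle with under 4 markers *Pdgfb* is at 6.79% to 11.2% and the markers are at 0.601% to 0.741%.

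*Pdgfrb*, the receptor (chromosome 18, 61045150 to 61085061, plus strand), was at 530.5, 482, 599.6 and 403 CPM in pericytes, and the values of the genotypes overlapped (log2 fold change -0.05, SE 0.24, 95% confidence interval -0.60 to 0.51). In pericytes with under 4 endothelial markers it was at 2085, 1847, 2232 and 1829 CPM. There each genotype had a lower and a higher mouse of about the same levels, and the log2 fold change was 0.01 (SE 0.20). Smooth muscle had *Pdgfrb* at 335, 287, 400.4 and 342 CPM (log2 fold change 0.11, SE 0.20). UMIs of *Pdgfrb* were found in 91.6% to 98.3% of pericytes, in 0% to 1.68% of microglia and, after thinning to 2000 UMIs, in 54.6% to 72.8% of pericytes.

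*Agtr1a*, the type 1 angiotensin II receptor (chromosome 13, 30336441 to 30382867, plus strand), was the scarcest member and the one with the largest genotype difference in pericytes. Its UMIs numbered 11 (WT1), 8 (WT2), 2 (KO1) and 3 (KO2), or 8.12, 3.65, 0.499 and 0.818 CPM. Both *Angpt2*-KO values were at or below the 3 counts taken as the floor of a sum, which stood at 0.748 and 0.818 CPM in these mice, and both *Angpt2*-WT values were above theirs. The log2 fold change was -3.05 (SE 0.76, 95% confidence interval -4.79 to -1.30, unadjusted p = 0.0036), and with an adjusted p of 0.20 from edgeR it was not called.

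Pooled over mice, pericytes held 5 UMIs of *Agtr1a* in 7677386 in *Angpt2*-KO against 19 in 3545729 in *Angpt2*-WT mice. This was a ratio of 0.122, with an exact 95% interval of 0.0355 to 0.337 that covers counting error only. In pericytes with under 4 endothelial markers, which held 7, 6, 2 and 0 UMIs, the ratio was 0.117 (0.0128 to 0.515). These few counts give only a wide interval, and the part of endothelial transcripts in the difference was not tested. The share of pericytes with a UMI was 8.16%, 4.28%, 1.14% and 0.971%, and 0 of 188, 135, 236 and 238 microglia had one. Thinned to 2000 UMIs, 1, 2, 1 and 0 pericytes kept a UMI, too few to order the mice. *Agtr1a* was called without KO2 (adjusted p = 0.040), without a filter on low counts (0.011) and with a replicate block (0.036), and the adjusted p was 0.18 to 0.83 in the other alternatives that tested it. Its near copy *Agtr1b*, with which reads could be shared, had 1.48, 0.913, 0 and 0 CPM in pericytes, and *Agtr2* had no UMI in any class. In smooth muscle *Agtr1a* had 4, 1, 1 and 7 UMIs, of 2227000, 1837651, 1228809 and 2516702 in the class, and was not tested. KO2 thus held more *Agtr1a* UMIs in smooth muscle than in pericytes (7 against 3). Cells that passed both mural rules were counted as smooth muscle, so any *Agtr1a* UMIs of theirs are missing from the pericyte values. The part of this rule in the pericyte difference was not tested.

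*Anpep* (chromosome 7, 79821803 to 79861059, minus strand), the aminopeptidase that is also a protein marker of brain pericytes, showed no such difference. It was at 32.5, 48.4, 40.2 and 30.8 CPM in pericytes (log2 fold change -0.24, SE 0.26), and at 106, 141, 141 and 142 CPM in those with under 4 endothelial markers (0.13, SE 0.26). In smooth muscle it was at 8.08, 2.72, 18.7 and 8.34 CPM (1.02, SE 0.54, adjusted p = 0.45), and in endothelium at 0.201 to 1.13 CPM.

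Among the other 14 genes of the renin-angiotensin list, 8 could be tested in pericytes and edgeR called 0, with 2 at an unadjusted p under 0.05. Over all genes tested in pericytes, 1318 of 11266 had such a p. *Enpep*, which makes angiotensin III, was at 74.5, 79.9, 79.6 and 48.3 CPM in pericytes (log2 fold change -0.31, SE 0.26, adjusted p = 0.69) and at 263, 275, 311 and 275 CPM in those with under 4 endothelial markers (0.10, SE 0.21). In endothelium 9 of the list were tested and 1 was called, *Prcp*, a carboxypeptidase, which was at 75.3, 95.8, 34.1 and 35.7 CPM and fell by 1.30 on the log2 scale (SE 0.13, adjusted p = 0.0099). With the angiogenic ECs left out it fell by 1.15 (adjusted p = 0.0074).

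**Figure D4:**
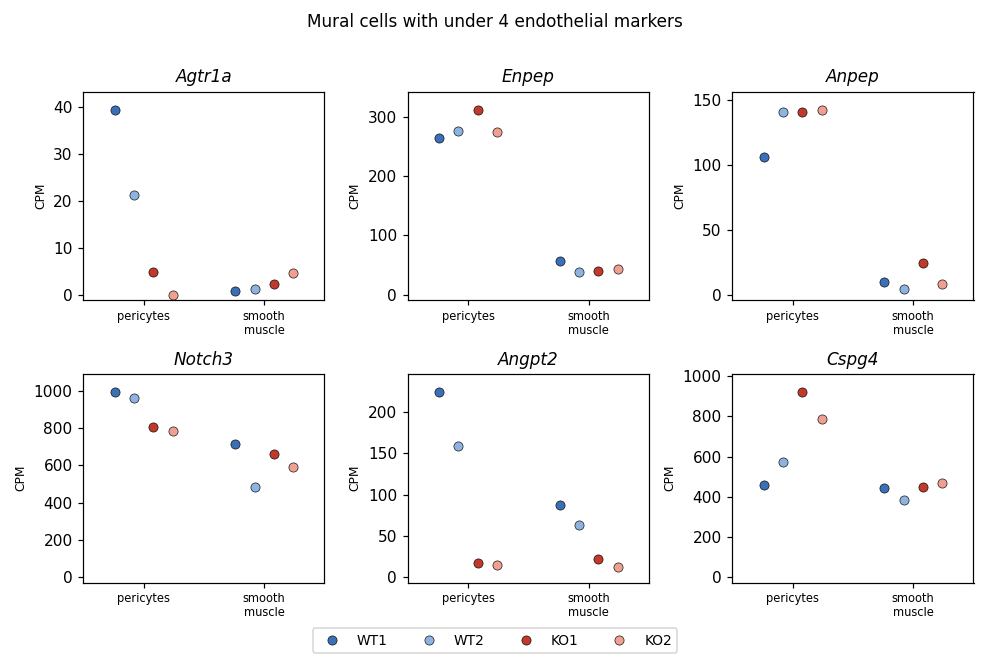
Level (CPM, linear axis) of *Agtr1a*, *Enpep*, *Anpep*, *Notch3*, *Angpt2* and *Cspg4* in pericytes and smooth muscle with under 4 endothelial markers, with 1 point per mouse. *Anpep* and *Enpep* overlap between the genotypes in pericytes, while *Agtr1a* (39.2 and 21.2 against 4.93 and 0 CPM) does not.

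*Rgs5* (chromosome 1, 169655501 to 169695813, plus strand) was the most abundant member, at 3937, 3189, 4853 and 3317 CPM in pericytes, with overlapping genotypes (log2 fold change 0.16, SE 0.24). In pericytes with under 4 endothelial markers it was at 11395, 9261, 11648 and 11733 CPM (0.14, SE 0.21). In smooth muscle KO1, with 58 cells, stood apart at 5373 CPM, against 2647, 2485 and 2675 CPM in WT1, WT2 and KO2. The fold change there was 0.51 (SE 0.28, adjusted p = 0.46), and it was called at 0.86 (adjusted p = 0.018) in smooth muscle with under 4 endothelial markers, where KO1 was at 7396 CPM and the others were at 2176 to 3264 CPM. With the cells that passed both mural rules left out it was -0.35 (adjusted p = 0.97).

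*Notch3* (chromosome 17, 32120820 to 32166852, minus strand) was at 286, 259, 236 and 202 CPM in pericytes. Both *Angpt2*-KO mice lay below both *Angpt2*-WT mice, also in pericytes with under 4 endothelial markers (992, 962, 806 and 785 CPM). Neither difference was called (log2 fold change -0.35, SE 0.19, and -0.33, SE 0.20). In smooth muscle *Notch3* was at 517, 398, 413 and 375 CPM (-0.36, SE 0.21, adjusted p = 0.49). Of 12 other genes of the mural Notch list, edgeR called 0 between genotypes in any of the 3 classes, with 2 of 12 (pericytes), 4 of 12 (smooth muscle) and 2 of 11 (endothelium) at an unadjusted p under 0.05. Over all genes tested, 1318 of 11266, 1434 of 10645 and 2274 of 13772 had such a p.

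*Cspg4* (chromosome 9, 56865033 to 56899870, plus strand) was at 145, 151, 268 and 160 CPM in pericytes (log2 fold change 0.50, SE 0.26, adjusted p = 0.51). KO1 stood above the other 3 mice, and the change was called at 0.81 without KO2 (adjusted p = 0.042) and was 0.05 without KO1. Among pericytes with under 4 endothelial markers both *Angpt2*-KO mice were higher, at 920 and 785 CPM against 460 and 575 CPM (0.69, SE 0.21, unadjusted p = 0.0049, adjusted p = 0.20). No such gap was seen in smooth muscle with under 4 markers, at 443, 384, 448 and 466 CPM. The difference between these genotype effects in the mural classes was 0.65 (SE 0.25, adjusted p = 0.38), and 0.73 in all cells of the classes (SE 0.23, adjusted p = 0.26).

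*Des* (chromosome 1, 75360329 to 75368579, plus strand) was at 81.2, 83.1, 100.5 and 83.7 CPM in pericytes (log2 fold change 0.13, SE 0.19). In smooth muscle it was at 463, 502, 375 and 337 CPM, with both *Angpt2*-KO mice below both *Angpt2*-WT mice (-0.58, SE 0.19, adjusted p = 0.22). The gap was smaller in smooth muscle with under 4 endothelial markers, at 692, 802, 687 and 714 CPM (-0.22, SE 0.23), and with cells that passed both mural rules left out (-0.11, SE 0.20). *Ednra* (chromosome 8, 77663031 to 77724464, minus strand) was at 64.2, 65.3, 78.8 and 55.6 CPM in pericytes (0.02, SE 0.23) and at 146, 131, 122 and 117 CPM in smooth muscle (-0.35, SE 0.18, adjusted p = 0.42).

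The makeup of the smooth muscle class also differed among these 4 mice. Cells that also passed the pericyte rule were 16.4% and 16.0% of it in WT1 and WT2 and 39.7% and 33.3% in KO1 and KO2. The exact 95% intervals (11.5% to 22.4%, 11% to 22.2%, 27.0% to 53.4% and 27.2% to 39.9%) cover counting error within a mouse only. As a share of kept cells, cells passing both rules gave an exact permutation p of 0.33, the smallest possible here. Their median depth was 12575.5, 8030, 18927 and 15724 UMIs, against 8347, 7563, 11940 and 6191.5 in the rest of the class. In the whole class the 5 pericyte markers summed to 638 and 796 CPM against 2059 and 1308 CPM, and 3 of the 5 were called higher in *Angpt2*-KO smooth muscle (median log2 fold change 1.27). With the cells that passed both mural rules left out, 0 genes in all were called in smooth muscle, with 448 at an unadjusted p under 0.05. *Acta2*, a gene of the class rule, was at 7702, 9795, 5765 and 5217 CPM, which is given with no test.

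Whether a genotype difference was larger in pericytes than in smooth muscle was tested as an interaction. None of 8 members was called, against 0.483% of 11398 genes, and DESeq2 called 0. The unadjusted p was under 0.05 for 1241 of the 11398 genes and, of the 8 members, for *Des* (0.72, SE 0.16, adjusted p = 0.11) and *Cspg4*. Both were called without KO2 (*Des* 0.81, *Cspg4* 1.08) and without a filter on low counts. Among mural cells with under 4 endothelial markers the value for *Des* was 0.05.

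Between the mural classes, over all 4 mice, the direction of several members differed with the endothelial transcripts of the cells compared. In all cells of the classes 7 of 8 members were called, against 24.8% of 11398 genes. *Anpep* (1.96 on the log2 scale), *Pdgfb* (0.45) and *Pdgfrb* (0.44) were higher in pericytes, and *Des* (-2.35), *Ednra* (-1.08), *Notch3* (-0.91) and *Cspg4* (-0.86) were lower. *Pdgfb* lost its call without KO2 (0.41, adjusted p = 0.051) and *Pdgfrb* without WT2 (0.39, adjusted p = 0.077). In mural cells with under 4 endothelial markers 7 of 8 were again called, against 31.4% of 7159 genes, but *Pdgfb* was lower in pericytes (-1.18, adjusted p = 0.0090) and *Notch3* (0.36, adjusted p = 0.042) and *Cspg4* (0.43, adjusted p = 0.029) were higher.

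The members that kept their side in both sets were *Pdgfrb*, *Anpep* and *Des*. In mural cells with under 4 endothelial markers *Pdgfrb* was higher in pericytes of every mouse, at 1829 to 2232 against 352 to 515 CPM in smooth muscle (1.97, SE 0.13, adjusted p = 2.6e-12). *Anpep* was at 106 to 142 against 4.91 to 24.5 CPM (3.39, SE 0.29, adjusted p = 5.2e-10), and *Des* at 230.4 to 278 against 687 to 802 CPM (-1.64, SE 0.14, adjusted p = 7.8e-10). *Rgs5*, which was not called in all cells (0.16, SE 0.11), was higher in these pericytes (1.43, SE 0.15, adjusted p = 1.3e-08). *Ednra* was at 235 to 286 against 177 to 237 CPM, with overlapping values (0.22, SE 0.16, adjusted p = 0.30).

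**Figure D5:**
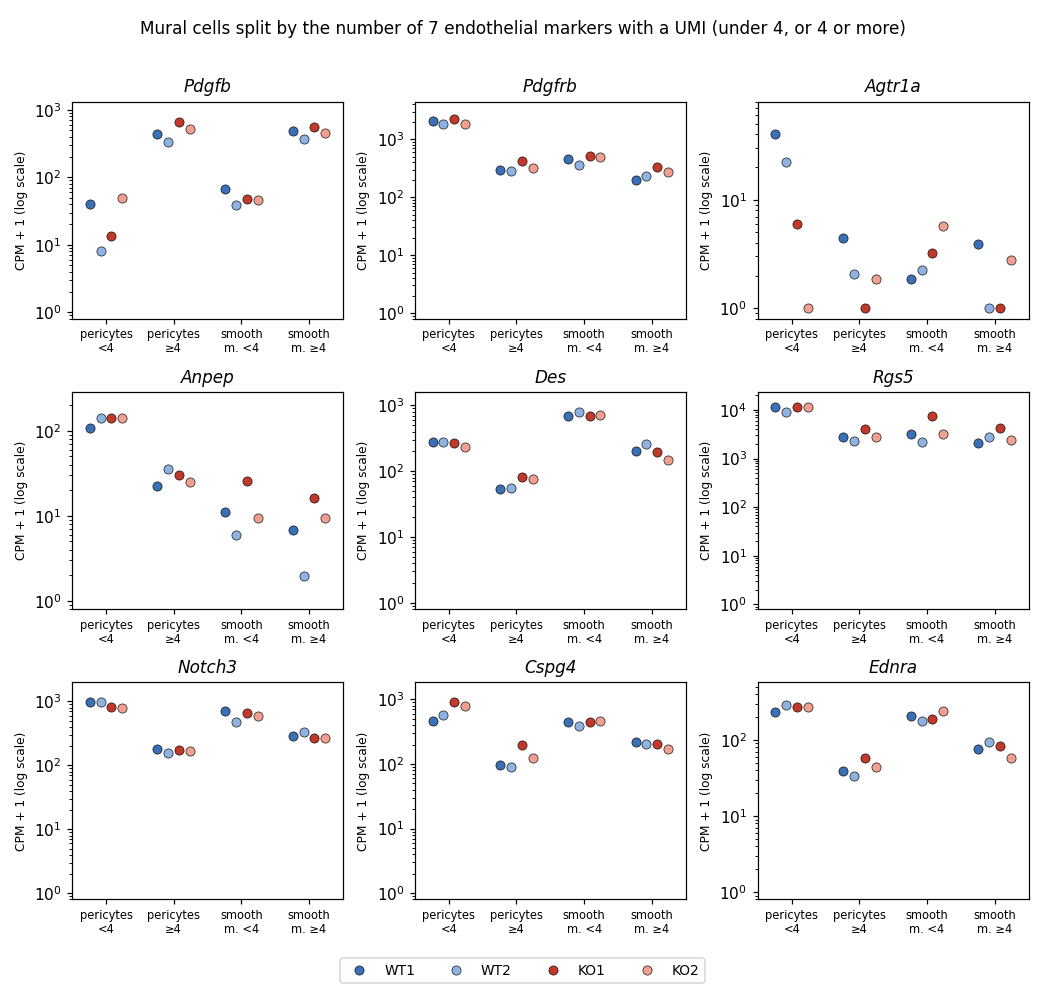
Level of each gene (CPM + 1, log scale) in pericytes and smooth muscle (smooth m.) with UMIs of under 4, or of 4 or more, of 7 endothelial markers, with 1 point per mouse. *Pdgfb* is at 7.05 to 49.0 CPM in pericytes with under 4 markers and at 334 to 665 CPM in the rest. *Pdgfrb*, *Des*, *Notch3*, *Cspg4* and *Ednra* are lower in the cells with 4 or more markers in both classes of every mouse.

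The lists of related genes held few calls between the genotypes, and in the pericyte class as a whole edgeR called 0 of 74 genes tested from 7 lists, with 21 at an unadjusted p under 0.05. Over all genes tested in pericytes, 1318 of 11266 had such a p. The other PDGF family genes and the RGS and Gq partners of the angiotensin receptor had 0 calls in smooth muscle and endothelium as well. In endothelium the unadjusted p was nevertheless under 0.05 for 4 of 5 PDGF family genes and 2 of 9 partners. Over all genes tested there, 2274 of 13772 had such a p. The 5 PDGF family genes went in both directions, with a median log2 fold change of -0.72. In smooth muscle the counts were 0 of 3 and 2 of 9, against 1434 of 10645 over all genes. In smooth muscle 5 of 24 genes of pericyte recruitment and anchoring were called, all higher in *Angpt2*-KO mice. They were *Cdh2* (N-cadherin; 1.72 on the log2 scale), the chemokine *Cxcl12* (1.67), the laminin chains *Lama2* (1.52) and *Lama4* (1.13) and the basement membrane linker *Nid1* (1.01). Those calls were among the ones lost when the cells passing both mural rules were left out. In endothelium 4 of 23 were called, all higher: *Nid1* (1.49), *Lama4* (1.31), *Cxcl12* (1.18) and the TGF-β co-receptor *Eng* (0.77). *Edn1*, which encodes endothelin-1, the ligand of *Ednra*, was at 262, 204, 518 and 523 CPM in endothelium and rose by 1.15 (SE 0.16, adjusted p = 0.019). *Nes* (0.70) and *Cald1* (0.65) rose as well in endothelium, from the list of contractile and filament genes. The 3 angiogenic EC genes, which summed to 57.5, 66.1, 678 and 286 CPM in endothelium, were called higher as well. With the angiogenic ECs left out, the values were 1.09 for *Nid1*, 0.92 for *Lama4*, 1.13 for *Cxcl12*, 0.68 for *Eng* and 0.59 for *Cald1*, which were still called. *Edn1* was then at 272, 209, 346 and 450 CPM (0.70, adjusted p = 0.13) and *Nes* at 0.56 (adjusted p = 0.058), and neither was called. Without WT1 or without WT2, 0 genes were called in endothelium by edgeR, with 2830 and 1659 at an unadjusted p under 0.05.

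Pericytes with under 4 endothelial markers gave 38 called genes of 4479 tested (0.848%, of which 0.246% higher and 0.603% lower), with 0 of the 7 members tested among them and *Cspg4* alone at an unadjusted p under 0.05. Over all genes tested there, 443 of 4479 had such a p. The median log2 fold change was 0.03 over these members and -0.0024 over all genes tested. In all pericytes none of the 4 genes named next was called. There *Tgfb2* was at 176, 136, 308 and 226 CPM (0.75 on the log2 scale, adjusted p = 0.30), *S1pr3* at 81.2, 72.1, 152 and 96.8 CPM (0.67, adjusted p = 0.36), *Angpt1* at 40.6, 19.2, 4.24 and 19.6 CPM (-1.33, adjusted p = 0.46) and *Angpt2* at 53.9, 39.3, 91.3 and 40.1 CPM (0.48, adjusted p = 0.67). In those with under 4 endothelial markers *Tgfb2* (50.4, 67.0, 185 and 162 CPM; 1.51 on the log2 scale, adjusted p = 0.025) and *S1pr3*, a sphingosine-1-phosphate receptor (196, 233, 523 and 481 CPM; 1.19, adjusted p = 0.020), rose. *Angpt1*, the pericyte ligand of the TEK receptor, fell by 2.37 (179, 106, 17.3 and 44.1 CPM, adjusted p = 0.025). *Angpt2* fell by 3.51 in these pericytes (224, 159, 17.3 and 14.7 CPM, adjusted p = 0.00085), whereas it rose by 1.99 in endothelium (12.6, 12.2, 59.8 and 39.4 CPM, adjusted p = 0.010). These 3′ UMIs do not read the deleted exon, so they check no genotype label.

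Over 24 sums (4 mice by pericytes, smooth muscle, arterial, venous and other ECs and microglia), *Notch3* and *Cspg4* were among each other's 3 most similar genes, with a Pearson's r of 0.992 for log2(CPM + 1). These sums share mice, libraries and classes, so that r is only a description. *Pdgfrb* was most like *Ndufa4l2* (0.992), *Ogn* (0.988) and *P2ry14* (0.986), and *Kcnj8*, a gene of the pericyte rule, was among the 3 genes most like *Anpep* (0.967). *Agtr1a*, with a mean of only 0.798 CPM, was most like *Steap4* (0.898) and *Fhl2* (0.861). *Des* was most like *Aspn* (0.992), *Rgs5* like *Gucy1b1* (0.979) and *Ednra* like *Heyl* (0.993). *Pdgfb* had no close match, with *Rasa1* first at 0.912.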

How the data were processed

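Vascular fragments of 4 mouse cerebra were profiled as described above. The authors deposited UMI counts per gene and barcode, made with Cell Ranger 6.1.2 on mm10 per the labels (the count files name 6.1.1), without normalization. The members and lists were chosen with earlier results of these data known.

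Here UMIs were summed per mouse and class of cells, since cells of 1 mouse are not replicates, and levels are CPM of these sums without further scaling. Classes were set by marker UMIs as given above, and microglia had 4 or more of 5 microglial markers. Sums were tested with edgeR 4.0.16 in R 4.3.3 after filterByExpr and TMM normalization, with the genotype as the term, or with the mouse as a term where classes of the same mice were compared. Genes of a class rule stayed in fits between genotypes, where no single test of them within their class is given, and were left out between classes and in the interaction. Counts over lists between genotypes still include some of them. These are *Tek* and *Tie1* in endothelium, and *Acta2*, *Tagln* and *Myh11* in pericytes, where the smooth muscle rule limits their UMIs. The genes named are the members, called genes of the lists (up to 8 per comparison by size), *Angpt2* and *Acta2*, and up to 3 genes most like each member among those with a mean of 5 CPM or more. A gene that this rule also names is not reported here. *Agtr1b*, *Agtr2*, *Enpep*, *Cldn5* and *Plvap* were named after their values were seen.

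Alternatives were DESeq2 1.42.0, RLE size factors, no filter on low counts, leaving out each mouse, a replicate block and other class rules. Shares have exact (Clopper-Pearson) 95% intervals, which cover counting error only, as does the floor of 3 counts. Each test was tried on simulated counts with 200 changed genes. In smooth muscle (10645 genes) it recovered 51% of 2-fold and 93% of 4-fold changes, and in endothelium (13772 genes) 72% and 92%. Gene positions are from GENCODE M21 on GRCm38. Stainings and other experiments of the study were not analysed here.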

Additional observations from a re-analysis of the deposited data

Results flagged for a closer look

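The genotype effect differed between pericytes and smooth muscle by the interaction test (pericytes minus smooth muscle, log2) for 5 genes of the lists, and for none of the members. It was lower in pericytes for *Lama2* (-1.35, adjusted p = 0.029), *Cdh2* (-1.26, adjusted p = 0.044) and the growth factor *Ptn* (-1.14, adjusted p = 0.015). *Cdh2* was at 90.01, 74.9, 149 and 89.4 CPM in pericytes and at 16.6, 17.4, 74.9 and 51.7 CPM in smooth muscle of WT1, WT2, KO1 and KO2. *Ptn* was at 3123, 3967, 2194 and 2531 CPM in pericytes and at 585, 889, 1104 and 1210 CPM in smooth muscle, so that both *Angpt2*-KO mice were lower in the former and higher in the latter. In cells with under 4 endothelial markers *Ptn* overlapped between the genotypes, at 4776, 5990, 4824 and 6149 CPM in pericytes and at 105, 328, 584 and 239 CPM in smooth muscle. The effect was higher in pericytes for *Hbegf* (1.25, adjusted p = 0.032) and *Tpm1* (0.79, adjusted p = 0.041). In endothelium *Hbegf* was at 128, 93.7, 199 and 162 CPM (log2 fold change 0.70, adjusted p = 0.11 from edgeR). *Tpm1* was at 282, 299, 464 and 399 CPM there (0.57, adjusted p = 0.087). Most UMIs of the pericyte class came from cells with 4 or more endothelial markers, and the part of endothelial transcripts in these 2 differences was not tested. In the smooth muscle of the *Angpt2*-KO mice the pericyte markers were also higher, and the part of this in the 5 differences was not tested.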

How the results depend on the processing

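With 2 mice per genotype the number of genes called depended strongly on the setting. Of 514 recomputed values of the members, 473 kept their side of the threshold and, except for 37 uncalled values, their direction. No member was called in the main fits between genotypes or of the interaction, so a value there kept its side by staying uncalled. This count is therefore no measure of how stable the member values were. In pericytes 29 genes were called, against 144 with DESeq2, 19 with RLE size factors, 663 without a filter, 293 with the replicate block and 0 to 864 when a mouse was left out (0 without WT1 or WT2, with 1093 and 569 at an unadjusted p under 0.05, 285 without KO1 and 864 without KO2). In smooth muscle 56 were called, against 93 with DESeq2, 463 without a filter, 22 at 40 or more UMIs, 0 with cells passing both mural rules left out and 3 to 212 without a mouse. In endothelium 413 were called, against 839 with DESeq2, 1142 without a filter, 691 with the replicate block and 0 to 1370 without a mouse. The interaction called 55, against 411 without a filter and 43 to 259 without a mouse. Pericytes against smooth muscle gave 2823 calls, and 1790 to 2510 without a mouse. Angiogenic against other ECs gave 3785, against 1574 with DESeq2. Leaving out a mouse there left 1 mouse, so that only its ratio of CPM is given.

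The labels do not say that a replicate number marks a batch or day, so the replicate block pairs mice only by number and sex. The study mentions independent experiments without tying them to these mice, so a shared experiment behind the numbers was not tested. Deviations of same-numbered mice correlated at 0.063 in pericytes, -0.066 in smooth muscle and 0.21 in endothelium (Pearson's r across genes, which are not replicates). Of the members, only *Agtr1a* in pericytes was called with the replicate block (-3.06, adjusted p = 0.036). With the numbers crossed, chosen after seeing the data, 35 genes were called in pericytes, 734 in smooth muscle and 1144 in endothelium.

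Directions turned in pericytes against smooth muscle with under 4 endothelial markers (*Pdgfb* -1.18, *Notch3* 0.36, *Cspg4* 0.43, *Ednra* 0.22), and in angiogenic ECs with 6 or more UMIs (*Pdgfrb* -0.55, *Des* -0.64, *Rgs5* -1.25, *Notch3* -0.89, *Cspg4* -0.77). The cause was not tested. Without WT2, *Pdgfrb* in pericytes against smooth muscle lost its call (0.39, adjusted p = 0.077), as did *Pdgfb* without KO2 (0.41, adjusted p = 0.051). Without KO1 the log2 fold changes in endothelium were 1.15 for *Pdgfrb* and 0.63 for *Rgs5*, with KO2 as the only *Angpt2*-KO mouse. In KO1 *Pdgfrb* was at 2.05 CPM, below WT1 and WT2 (2.59 and 2.18 CPM). *Rgs5* was at 57.3 CPM in KO1, between WT1 and WT2 (60.2 and 50.8 CPM). Thinning to 2000 UMIs moved the mean share of cells with a UMI from 87.4% to 65.9% for *Pdgfb* in endothelium and from 95.1% to 66.5% for *Pdgfrb* in pericytes. The splits of smooth muscle and of the interaction by endothelial markers, and angiogenic ECs over 4 mice, were also added after seeing the data. In that last fit the 5 mural members were not called (0.26 to 0.98), and *Pdgfb* was (0.39).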
